A study of Mus musculus with 4 samples.

Results

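Semaphorins, their neuropilin co-receptors and plexin A4 were followed in muscle that forms heterotopic bone after injury. The 10 genes were *Sema3a*, *Sema3b*, *Sema3c*, *Sema3d*, *Sema3e*, *Sema4a*, *Sema4d*, *Nrp1*, *Nrp2* and *Plxna4*, taken by symbol from the 32285 genes counted in the series. The series holds 4 single-cell RNA sequencing libraries of digested tibial muscle from *Nse-Bmp4* mice on a C57BL/6 background aged 6 to 8 weeks: Uninjured muscle, and muscle taken 1 day, 3 days or 7 days (1, 3 or 7 dpi) after injury by cardiotoxin (CTX), a venom toxin that destroys muscle fibres. The transgene carries a murine *Bmp4* cDNA behind the rat neuron-specific enolase promoter, and the Uninjured group carries it as well, so no group analysed here lacks it. Each library was 1 pool of 3 muscles with no replicate library, so no difference between libraries was tested, and every interval given here covers counting error only. The comparisons address which cells of the injured muscle carry the ligands and the receptors of this family as immune cells enter and cartilage forms, a question the study raised through the signals passing between immune cells and mesenchymal stem cell (MSC) lineage cells.

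Semaphorins are guidance proteins first described for repelling growing axons. Class 3 semaphorins are secreted and bind a neuropilin, which has no signalling domain of its own and pairs with a class A plexin such as plexin A4 to carry the signal into the cell, whereas *Sema3e* can bind plexin D1 without a neuropilin. Class 4 semaphorins such as *Sema4a* and *Sema4d* (CD100) are membrane proteins known from T cells, B cells and myeloid cells, and *Sema4d* binds plexin B1. Neuropilins also serve as co-receptors for vascular endothelial growth factors, *Nrp1* mostly on arteries and blood capillaries and *Nrp2* on veins and lymphatics. In bone, *Sema3a* and *Sema4d* are known for opposite effects on bone formation.

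After filtering, 52853 of 62665 deposited cells were kept. Cells were placed in 17 classes by marker genes, with at least 3 markers of a list detected in a cell, and none of the 10 genes was a marker. Each class name below stands for cells that are like that type by these markers alone. Between 80.2% and 96.6% of the kept cells of a library entered a class. The median depth of kept cells was 8638 unique molecular identifiers (UMIs, each 1 captured RNA molecule) in Uninjured muscle, 5896 at 1 dpi, 4338 at 3 dpi and 3049 at 7 dpi, so depth moved with time and its part in the time courses was tested only as far as cells thinned to 1000 UMIs show. RNA of mature fibres was low but differed between libraries: in order of time, all kept cells held 52, 67, 77 and 50 UMIs of the fast fibre myosin *Myh4*, 1095, 204, 1390 and 3751 of the actin *Acta1*, and 278, 121, 6367 and 1694 of the giant sarcomere gene *Ttn*, and the part of this RNA in the results was not tested. Libraries shared 30 to 95 cell barcodes per pair. The mesenchymal class, which holds MSC lineage cells except those gated as chondrocytes, tenocytes or mural cells, had 8245, 3720, 5939 and 8226 cells. All 7 of its markers were detected in each library. Its make-up differed with time. Cells of an osteochondral gate (*Lrrc15*, *Tnn* and *Adam12*) numbered 0, 1, 189 and 1398 in it. The 7 chondrocyte markers summed in the class to 6.91, 2.90, 2.78 and 274 CPM (defined below), and the 5 tenocyte markers to 111, 185, 640 and 765 CPM. The part of this make-up in the levels of the whole class was not tested. Chondrocytes were 5965 cells at 7 dpi and 1 cell in the other 3 libraries together. Levels are given as CPM, the count of a gene in all cells of a class and library divided by the total count of those cells and multiplied by 1000000.

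Of the 10 protein-coding genes, 4 secreted ligands lie on mouse chromosome 5 (GRCm38, GENCODE M21), *Sema3d* at chr5:12383385-12588948, *Sema3a* at chr5:13125414-13602565, *Sema3e* at chr5:14025276-14256689 and *Sema3c* at chr5:17574281-17730268, all on the plus strand. The other ligands are *Sema3b* at chr9:107597674-107609229, *Sema4a* at chr3:88435959-88461182 and *Sema4d* at chr13:51685529-51793747, all on the minus strand. The receptors are *Nrp1* at chr8:128358604-128503363 and *Nrp2* at chr1:62703285-62818695 on the plus strand and *Plxna4* at chr6:32144268-32588192 on the minus strand. RefSeq promoters (GRCm38.p6) were matched for 8 of the 10 genes. The 250 bases before the start are shown for *Sema3d* and *Sema3e*, which were both higher in adventitial than in interstitial cells in the results below, and for *Sema4a*, which marks immune cells, because these 3 windows end at or before the first base of the gene in GENCODE M21. Each is written 5′ to 3′ on the strand of the gene, with every CG dinucleotide in capitals.
*Sema3d* (chr5:12382916-12383165, plus strand): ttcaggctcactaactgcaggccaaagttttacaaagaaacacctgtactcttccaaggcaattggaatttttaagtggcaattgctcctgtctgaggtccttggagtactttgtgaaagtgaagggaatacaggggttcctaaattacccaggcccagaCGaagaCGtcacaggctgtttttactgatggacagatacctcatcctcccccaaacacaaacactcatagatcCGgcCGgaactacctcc
*Sema3e* (chr5:14025026-14025275, plus strand): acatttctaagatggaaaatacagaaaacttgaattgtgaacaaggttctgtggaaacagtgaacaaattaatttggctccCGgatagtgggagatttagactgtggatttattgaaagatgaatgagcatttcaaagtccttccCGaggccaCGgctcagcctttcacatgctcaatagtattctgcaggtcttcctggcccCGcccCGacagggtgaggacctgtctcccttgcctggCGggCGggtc
*Sema4a* (chr3:88461183-88461432, minus strand): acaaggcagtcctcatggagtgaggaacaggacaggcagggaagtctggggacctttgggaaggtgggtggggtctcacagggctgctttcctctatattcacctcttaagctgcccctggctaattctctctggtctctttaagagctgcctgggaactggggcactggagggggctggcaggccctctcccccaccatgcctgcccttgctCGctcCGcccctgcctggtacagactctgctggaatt
The 3 windows hold 4, 7 and 2 CG dinucleotides, near the median of 6 over all RefSeq promoter windows. The window of *Sema3c* holds 39 and that of *Nrp2* holds 32. The letters CAGCTG, a form of the E-box that reads the same on both strands, occur in the window of *Sema4d* and in 13% of all promoters. This window is 1 of 3 RefSeq promoters of *Sema4d* and lies 37064 bases from the start of the gene in GENCODE M21. The letters GGCGCC, also the same on both strands, occur in the window of *Sema3c* and in 9.59% of all promoters.

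The secreted ligand *Sema3c*, known for guiding neural crest and endothelial cells in the developing heart, was a gene of mesenchymal cells. These cells held 98.1% of all *Sema3c* UMIs of the Uninjured library, 94.4% at 1 dpi, 91.7% at 3 dpi and 62.4% at 7 dpi, when chondrocytes held a further 25.2%. Such shares depend on the number and depth of the cells in a class as well as on its level. Mesenchymal cells were 8245 of 10307, 3720 of 9641, 5939 of 12604 and 8226 of 20301 kept cells in order of time. Chondrocytes were 5965 of the kept cells at 7 dpi. Within the mesenchymal class its level was 251 CPM in Uninjured muscle, 234 CPM at 1 dpi, 134 CPM at 3 dpi and 109 CPM at 7 dpi. The level at 7 dpi was 2.32-fold lower than in Uninjured muscle (95% counting interval 2.24 to 2.39). Over single cells, 53.7%, 51.8%, 41.1% and 25.3% of mesenchymal cells had a *Sema3c* UMI in the 4 libraries. With every cell thinned to 1000 UMIs the shares were 18.4%, 17.6%, 13% and 9.04%. B cells, which should lack the gene, gave 1.07%, 0.153%, 0.608% and 0.69% in the same thinned counts, where their median depths before thinning were 2431, 2844, 1754 and 1450 UMIs against 9159, 8110, 5976 and 3093 UMIs in mesenchymal cells. The mesenchymal shares were therefore above the B cell background in each library.

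Inside the mesenchymal class *Sema3c* separated adventitial cells, gated by *Pi16*, *Dpp4*, *Cd55* and *Anxa3*, from interstitial cells, gated by *Smoc2*, *Col15a1* and *Lpl*. Adventitial cells held 596, 554, 386 and 362 CPM in order of time, and interstitial cells held 28.0, 43.1, 39.9 and 57.9 CPM. The adventitial level was 21.3-fold higher in Uninjured muscle (19.4 to 23.5) and 6.25-fold higher at 7 dpi (5.54 to 7.05). At 7 dpi the level was below Uninjured muscle in adventitial cells and above it in interstitial cells, so the distance between them was smaller. The adventitial share of the mesenchymal class also differed, from 15.7% in Uninjured muscle to 16% at 1 and 3 dpi and 8.19% at 7 dpi, and its part in the lower *Sema3c* of the whole class was not tested. The interstitial share was 24.5% in Uninjured muscle and 15.6% at 7 dpi. Both gates need detected markers, mesenchymal depth was lower at 7 dpi, and the part of depth in these shares was not tested. Thinning kept the order, with 42.4% of adventitial and 2.48% of interstitial cells positive in Uninjured muscle and 23.0% and 7.13% at 7 dpi.

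The other class 3 ligands followed the same division. In Uninjured muscle, *Sema3a*, *Sema3b*, *Sema3d* and *Sema3e* were 13.3-fold, 6.95-fold, 25.4-fold and 221-fold higher in adventitial than in interstitial cells. The last ratio rests on 2 interstitial UMIs and has a counting interval of 60.5 to 1829. At 1 dpi *Sema3e* had 182 UMIs in adventitial cells and 0 in interstitial cells, at least 68.5-fold higher when 3 UMIs are set as the floor of the interstitial library. Thus 5 of the 8 genes with at least 30 UMIs over both gates were at least 2-fold higher in adventitial cells of Uninjured muscle, against a background of 6.79% of 12359 genes. The 10 genes were chosen with earlier results of these data known. This background and those given below are therefore a description and cannot show enrichment. The same 5 ligands passed at 1 dpi (background 6.95%), and *Plxna4* joined them at 3 dpi (background 3.3%). At 7 dpi 3 genes passed (background 2.53%), *Sema3a* at 3.22-fold, *Sema3c* at 6.25-fold and *Sema3d* at 4.34-fold, whereas *Sema3b* stood at 1.86-fold and *Sema3e* was under 30 UMIs. In the other direction *Nrp1* and *Nrp2* were at least 2-fold lower in adventitial cells of Uninjured muscle (background 13.2%). At 1 and 3 dpi only *Nrp2* of the 10 genes passed in this direction (backgrounds 9.9% and 6.62%), and at 7 dpi none did (background 5.49%).

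*Sema3e*, a ligand known for limiting vessel growth through plexin D1, was lower in the later libraries. Its mesenchymal level was 7.44 CPM in Uninjured muscle, 9.03 CPM at 1 dpi, 3.48 CPM at 3 dpi and 1.54 CPM at 7 dpi, the last 4.83-fold below Uninjured muscle (3.73 to 6.36). In adventitial cells alone it was 27.8, 31.2, 13.5 and 4.86 CPM, so the lower level was also present within this gate. The step from 1 to 3 dpi in the whole class, a log2 ratio of −1.37, was −0.47 after thinning and −0.70 as a mean over single cells. *Sema3b*, a candidate tumour suppressor in the human lung, was lower already at 1 dpi, at 40.7, 21.6, 11.5 and 17.0 CPM. Its 1.48-fold higher level at 7 dpi than at 3 dpi turned to a log2 ratio of −0.11 after thinning and −0.13 as a mean over single cells. *Sema3d* was 15, 6.76, 5.87 and 9.99 CPM in mesenchymal cells, and the 1 dpi level was 2.22-fold below Uninjured muscle (1.93 to 2.57). *Sema3a* was low throughout, at 3.86, 4.35, 2.09 and 5.49 CPM, with the lowest value at 3 dpi.

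Compared with Uninjured muscle, the 2 gates differed at 7 dpi. In adventitial cells *Nrp1*, *Nrp2* and *Plxna4* were at least 2-fold higher (background 11%) and *Sema3b* and *Sema3e* at least 2-fold lower (background 8.52%), among 8 genes with at least 30 UMIs. In interstitial cells 5 of 7 genes were at least 2-fold higher (background 10.3%) and none was lower (background 7.91%). These 5 were *Sema3c* at 2.07-fold, *Sema3d* at 4.19-fold (2.35 to 7.62), *Sema4a* at 3.41-fold (1.76 to 6.70), *Nrp2* at 4.78-fold and *Plxna4* at 15.1-fold. Median depth of interstitial cells was 7910.5 and 3325 UMIs. Their thinned *Sema3d* shares, 0.149% (0.0307 to 0.434) and 0.567% (0.228 to 1.16), overlapped. Those of *Nrp2*, 0.942% (0.568 to 1.47) and 4.78% (3.66 to 6.12), were apart. So were those of *Plxna4*, 0% (up to 0.183) and 1.05% (0.562 to 1.79). The part of immune cell RNA in *Sema4a* was not tested. *Nrp2* and *Plxna4* passed upward in both gates, and no ligand did.

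**Figure D1:**
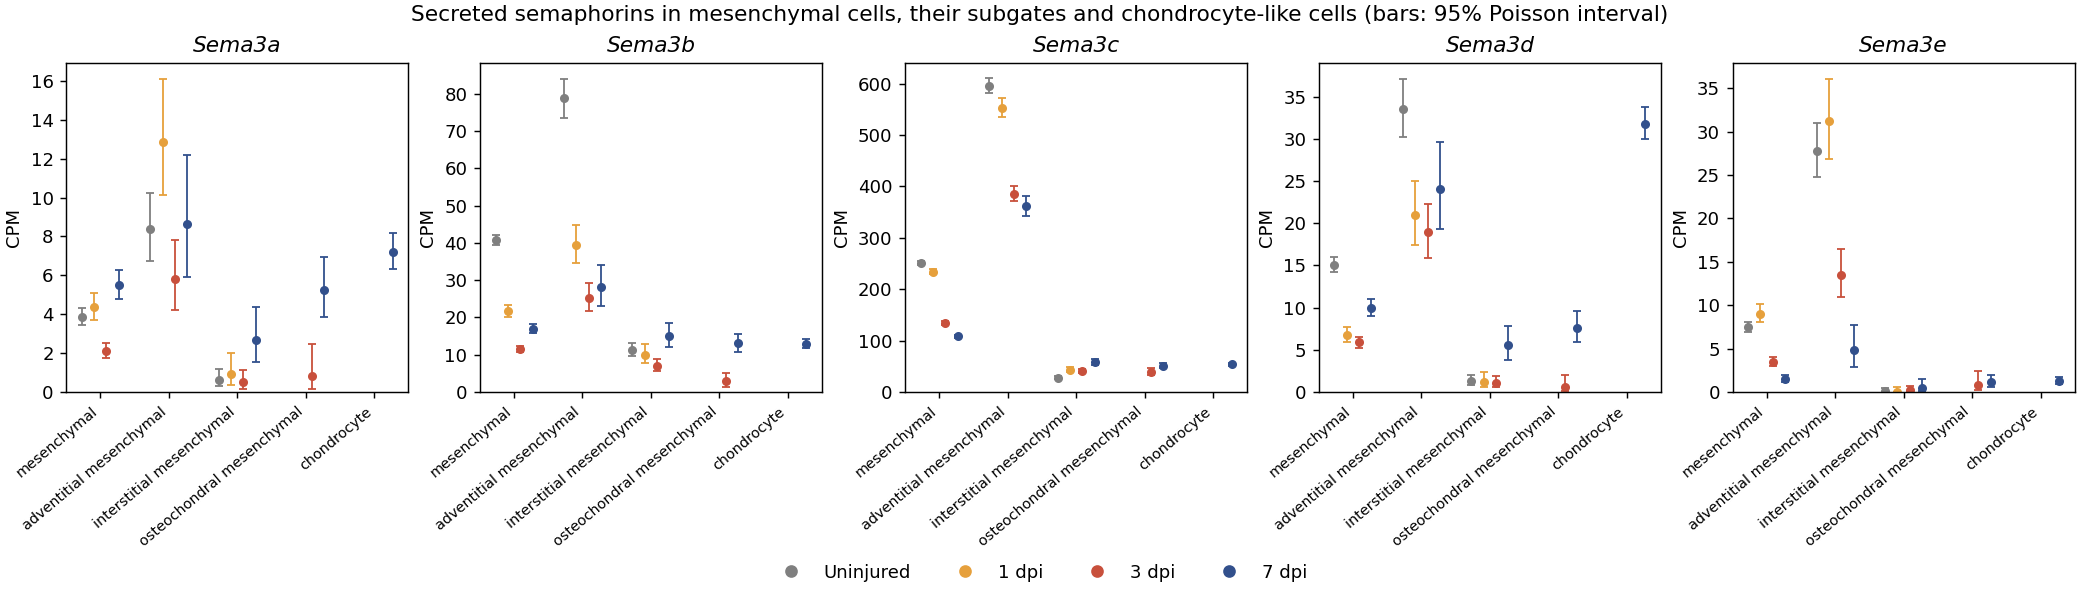
Levels of the 5 secreted semaphorins (vertical axis, CPM, a separate scale for each gene) in all mesenchymal cells, in their adventitial, interstitial and osteochondral gates and in chondrocytes (horizontal axis), with 1 point per library coloured by time and bars for the 95% Poisson interval. Adventitial cells held the highest mesenchymal level of each gene in Uninjured muscle (596 CPM of *Sema3c*), and chondrocytes held 31.8 CPM of *Sema3d* at 7 dpi.

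Tenocytes, cells of tendon that are marked by *Tnmd*, carried *Sema3a* well above its mesenchymal level. In tenocytes it was 122 CPM in Uninjured muscle (110 UMIs in 86 cells), 117 CPM at 1 dpi (34 UMIs in 36 cells), 49.2 CPM at 3 dpi and 11.6 CPM at 7 dpi. The Uninjured level was 31.6-fold above that of mesenchymal cells (25.2 to 39.4), and at 7 dpi the distance was 2.12-fold (1.54 to 2.88). Tenocytes were 615 cells at 7 dpi, against 36 to 97 cells in the other libraries, and the *Sema3a* level at 7 dpi was 10.5-fold lower (7.47 to 14.9). The class differed in its markers as well. Its 5 gate markers summed to 11294.5, 13327, 12416 and 3625 CPM in order of time. The 7 chondrocyte markers summed in the same cells to 73.2, 37.8, 22.5 and 404 CPM. The parts of cell number and of class make-up in the levels of tenocytes were not tested. *Sema3b* in tenocytes followed the same order, at 194, 103, 50.2 and 37.6 CPM, and *Sema3d* was 59.9, 44.7, 14.3 and 6.49 CPM. *Sema3c* was 136, 182, 124 and 67.8 CPM, 2.01-fold lower at 7 dpi than in Uninjured muscle. In this comparison 4 of 7 genes with at least 30 UMIs were at least 2-fold lower (background 8.06%), all 4 of them secreted ligands, and *Nrp1* and *Nrp2* were at least 2-fold higher (background 15%).

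Schwann cells, the glia of peripheral nerves, had the highest *Sema3b* level of any class with at least 50 cells in all 4 libraries. It was 513, 625, 480.2 and 423 CPM, 12.6-fold above mesenchymal cells in Uninjured muscle and 41.8-fold above them at 3 dpi, in comparisons where median-of-ratios scaling moved the median gene by 0.44 and 0.61 on the log2 scale. Schwann cells also led for *Sema3e*, at 46.4, 87.2, 81.8 and 33.4 CPM, while mesenchymal cells never exceeded 9.03 CPM. *Sema3d* in Schwann cells was 19.1 CPM in Uninjured muscle, 92.4 CPM at 1 dpi, 81.8 CPM at 3 dpi and 27.9 CPM at 7 dpi. The 1 dpi level was 4.85-fold above Uninjured muscle (2.79 to 8.95), and 1 and 3 dpi had overlapping intervals. In the comparison of 1 dpi with Uninjured Schwann cells, 7.96% of 6972 genes were at least 2-fold higher. *Sema3d* thus stood higher in Schwann cells at 1 and 3 dpi than before injury or at 7 dpi, with 10 to 70 UMIs behind each value. *Sema3e*, from 12 to 66 UMIs, stood apart from both at 1 dpi only. Its 3 dpi interval (55.6 to 116) overlapped Uninjured muscle (33.0 to 63.5) and 7 dpi (17.3 to 58.4). Thinned shares were 0.439%, 4.97%, 6.25% and 2.01% for *Sema3d* and 3.51%, 8.29%, 4.86% and 1.34% for *Sema3e*. Of these, only *Sema3d* in Uninjured muscle and at 3 dpi had intervals apart.

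Chondrocytes, present at 7 dpi, differed from the mesenchymal cells of the same library in *Sema3d*. It was 31.8 CPM in chondrocytes and 9.99 CPM in mesenchymal cells, 3.18-fold higher (2.84 to 3.57), and chondrocytes held 64.6% of all *Sema3d* UMIs of the library. Chondrocytes were 5965 of its 20301 kept cells. *Sema3c* went the other way, 53.5 against 109 CPM, 2.03-fold lower (1.92 to 2.14). In this comparison 4.05% of 14646 genes were at least 2-fold higher and 4.37% at least 2-fold lower, and of the 10 genes *Sema3d* alone passed upward and *Sema3c* alone downward. *Sema3c* passed the 2-fold limit narrowly and stayed under it in 6 of the alternative settings. *Nrp2* was just under the limit at 1.98-fold (1.89 to 2.08), with 138 CPM in chondrocytes and 69.6 CPM in mesenchymal cells. Osteochondral mesenchymal cells, gated by *Lrrc15*, *Tnn* and *Adam12*, had 103 CPM of *Nrp2* and 7.63 CPM of *Sema3d* at 7 dpi, against which chondrocytes were 1.34-fold higher in *Nrp2* (1.25 to 1.44) and 4.16-fold higher in *Sema3d* (3.27 to 5.38).

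*Nrp2*, a co-receptor of *Sema3f* and *Sema3c*, had a higher summed level at 7 dpi than in Uninjured muscle in mesenchymal cells, tenocytes, mural cells and monocytes or macrophages, though not a higher share of positive cells in the last. In mesenchymal cells it was 8.48 CPM in Uninjured muscle, 20.1 CPM at 1 dpi, 23.9 CPM at 3 dpi and 69.6 CPM at 7 dpi. The 7 dpi level was 8.22-fold above Uninjured muscle (7.55 to 8.96), and the step from Uninjured to 1 dpi was 2.37-fold (2.13 to 2.64). Osteochondral cells, at 103 CPM of *Nrp2*, were 17.0% of the class at 7 dpi and 0% in Uninjured muscle, and their part was not tested. The small step from 1 to 3 dpi, 1.19-fold, depended on the cell filter, with a log2 ratio of −0.072 when no cell was filtered. Thinned to 1000 UMIs, 0.91%, 1.72%, 2.58% and 6.58% of mesenchymal cells had an *Nrp2* UMI, against 0%, 0%, 0% and 0.69% of B cells. The B cell zeros allow shares of up to 1.95%, 0.281% and 1.11% (exact 95% upper limits).

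The same direction was seen in adventitial cells, at 5.87, 12.0, 12.3 and 33.7 CPM, and in interstitial cells, at 12.2, 32.0, 29.2 and 58.1 CPM. Interstitial cells had the higher summed level at each time, by 2.07-fold in Uninjured muscle (1.56 to 2.78) and 1.72-fold at 7 dpi (1.40 to 2.13), the reverse of the ligands. Thinned shares were 0.617%, 0.838%, 1.29% and 3.94% in adventitial cells and 0.942%, 2.65%, 3.19% and 4.78% in interstitial cells. Their intervals were apart at 3 dpi only. Mural cells were gated by markers of the pericytes and smooth muscle of vessels. They had 8.72 CPM in Uninjured muscle and 68.3 CPM at 7 dpi, 7.83-fold higher (4.31 to 15.9). The mural class numbered 139 cells in Uninjured muscle and 602 at 7 dpi. Its own 7 markers summed to 6392 and 5848 CPM, the 7 mesenchymal markers to 1497 and 3864 CPM and the 7 chondrocyte markers to 19.8 and 148 CPM. The part of this make-up in the mural levels was not tested. Tenocytes had 36.6 and 102 CPM, 2.79-fold higher (1.96 to 4.11). Monocytes and macrophages had 28.0, 32.8, 37.9 and 72.6 CPM, 2.60-fold higher at 7 dpi than in Uninjured muscle (1.88 to 3.61), and those with C1q transcripts had 22.5, 39.3, 44.9 and 98.3 CPM. The 99 UMIs of the class at 7 dpi came from 37 of 293 cells. The share of monocytes and macrophages with an *Nrp2* UMI was 16.9% in Uninjured muscle and 12.6% at 7 dpi, and after thinning 1.80% and 1.72%, so the summed level was higher and the share of positive cells was not. Thinned shares were 5.81% and 8.21% in tenocytes and 1.44% and 4.91% in mural cells, in both with overlapping intervals. Blood endothelial cells had 70.7 CPM at 1 dpi, 75.5 CPM at 3 dpi and 277 CPM at 7 dpi, the last from 49 cells.

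Schwann cells did not share this difference. Their *Nrp2* level was 86.9, 74.0, 76.5 and 75.2 CPM, and the 4 intervals overlapped. In Uninjured muscle they stood 10.3-fold above mesenchymal cells (7.94 to 13.1), and at 7 dpi the ratio was 1.08 with an interval of 0.711 to 1.57. Among classes with at least 50 cells, Schwann cells led in Uninjured muscle and at 1 dpi, where endothelial cells (70.7 CPM) overlapped them, and endothelial cells (308 CPM) led at 7 dpi, followed by chondrocytes. At 3 dpi 46 of the 67 endothelial *Nrp2* UMIs came from 14 cells gated as lymphatic, which also held all 12 endothelial *Sema3a* UMIs and all 24 *Sema3d* UMIs of that library. These 14 cells are too few to stand as a class and are given as counts.

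*Nrp1*, the neuropilin that binds *Sema3a* and VEGF-A, was highest in endothelial cells in the 3 injured libraries. Its level there was 334 CPM in the 20 Uninjured cells, 601 CPM at 1 dpi, 308 CPM at 3 dpi and 389 CPM at 7 dpi. Mesenchymal cells had 70.3, 87.0, 139 and 103 CPM, with the highest level at 3 dpi, 1.60-fold above 1 dpi (1.53 to 1.67). Against Uninjured muscle the 3 dpi level was 1.98-fold higher (1.91 to 2.05), just under the 2-fold limit. Interstitial cells exceeded adventitial cells at each time, by 2.07-fold in Uninjured muscle (1.86 to 2.30) and 1.24-fold at 3 dpi (1.15 to 1.35). Mural cells had 34.1 CPM in Uninjured muscle and 146 CPM at 7 dpi, 4.29-fold higher (3.15 to 5.99), and the part of their differing make-up was not tested.

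*Nrp1* was also an immune gene in these libraries. Monocytes and macrophages had 62.4, 127, 103 and 59.4 CPM, with 1 dpi 2.03-fold above Uninjured muscle (1.71 to 2.42), where 17.1% of 10337 genes were at least 2-fold higher. T cells had 16, 49.5, 43.9 and 17.3 CPM, and 34 regulatory T cells at 1 dpi, gated by *Foxp3*, had 177 CPM from 24 UMIs. Outside them, CD4 T cells had 70.5 CPM at 1 dpi and CD8 T cells had 19.9 CPM. Plasmacytoid dendritic cells, a type known for *Nrp1* in humans, had 85.4 CPM at 3 dpi. NK cells had at most 5.03 CPM. Myogenic cells, the muscle stem cells and their progeny, had 3.83, 8.60, 49.0 and 13.3 CPM, a level at 3 dpi 5.69-fold above 1 dpi (2.15 to 21.3). The 1 dpi value rests on few UMIs, since 3 UMIs are 6.45 CPM in that group. Myogenic cells with a UMI of *Myog* or *Mymk* numbered 35, 0, 62 and 68 in order of time, and the part of this was not tested.

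*Plxna4*, a class A plexin that can pair with a neuropilin, was nearly undetected in mesenchymal cells before 3 dpi. It had 49 UMIs in Uninjured mesenchymal cells and 22 UMIs at 1 dpi, then 837 UMIs at 3 dpi and 642 UMIs at 7 dpi. These counts gave 0.633, 0.639, 15.5 and 15.5 CPM, so Uninjured muscle and 1 dpi stood at like summed levels, and so did 3 and 7 dpi. The 3 dpi level was 24.3-fold above 1 dpi (15.9 to 39.0), in a comparison where 6.71% of 14464 genes were at least 2-fold higher. The size of this step moved with the settings, from a log2 ratio of 2.88 after thinning to 5.14, against 4.6 as given. The log2 ratio of 1 dpi over Uninjured muscle, 0.01, moved with the settings too, to −2.50 without the cell filter. It was 3.15 after thinning, but from 1 positive cell of 8245 in Uninjured muscle and 4 of 3715 at 1 dpi. The thinned ratios against these libraries therefore say little. Over single cells, 0.546%, 0.43%, 7.75% and 6.13% of mesenchymal cells had a *Plxna4* UMI. After thinning the shares at 3 and 7 dpi were 0.758% (0.551 to 1.02) and 1.47% (1.21 to 1.76), which did not overlap, and the log2 ratio of 7 over 3 dpi was 0.92 after thinning and 0.84 as a mean over single cells, against −0.0051 for the summed level.

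*Plxna4* was spread unevenly at 3 dpi. Osteochondral mesenchymal cells had 34.0 CPM, adventitial cells 21.9 CPM and interstitial cells 6.23 CPM, with intervals that did not overlap. Their median depths differed, at 18397, 5239.5 and 4113.5 UMIs. Thinned to 1000 UMIs, the positive shares were 3.17% (1.17 to 6.78), 1.39% (0.745 to 2.37) and 0.241% (0.0656 to 0.615). The osteochondral and adventitial intervals then overlapped, and the interstitial interval stayed below both. Adventitial cells were 3.51-fold above interstitial cells at 3 dpi (2.61 to 4.77) and 1.95-fold above them at 7 dpi (1.33 to 2.89). The thinned shares at 7 dpi were 0.909% (0.334 to 1.97) in adventitial and 1.05% (0.562 to 1.79) in interstitial cells, with overlapping intervals. Chondrocytes had 12.5 CPM at 7 dpi, 1.24-fold below mesenchymal cells (1.09 to 1.40), a direction that turned after thinning (log2 ratio 0.10). Apart from mesenchymal cells and chondrocytes, the gene was seen in endothelial cells, at 73.7 CPM at 1 dpi from 25 UMIs and 71.7 CPM at 3 dpi from 24 UMIs. Tenocytes had 18.9 CPM from 17 UMIs in 86 Uninjured cells and 10.3 CPM from 46 UMIs at 7 dpi. Mural cells had 5.96 CPM from 24 UMIs at 7 dpi.

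**Figure D2:**
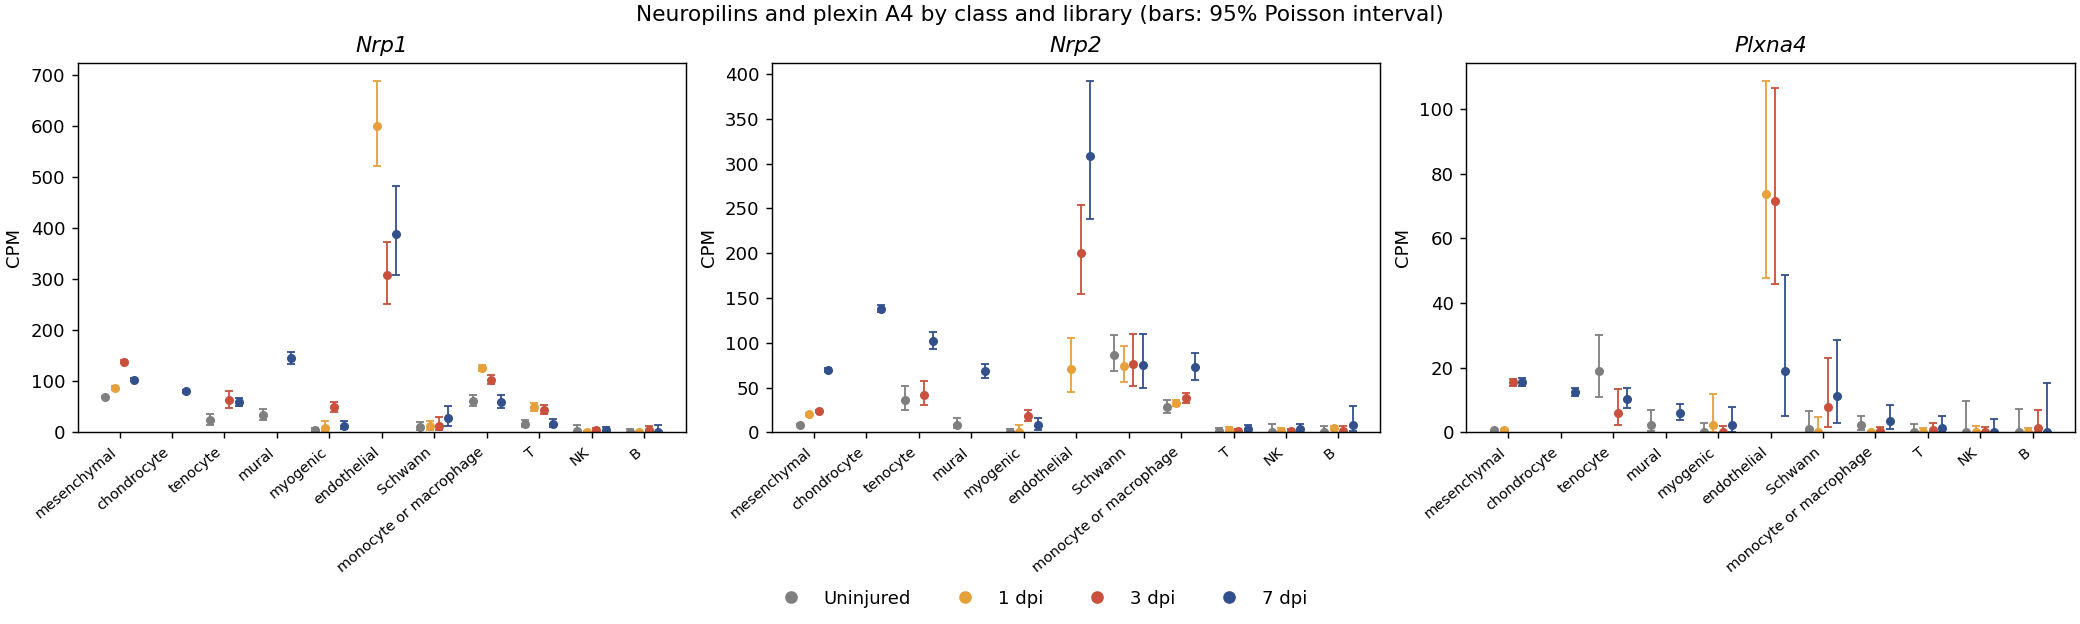
Levels of *Nrp1*, *Nrp2* and *Plxna4* (vertical axis, CPM, a separate scale for each gene) by marker-gated class (horizontal axis), with 1 point per library coloured by time and bars for the 95% Poisson interval; groups under 50 cells are left out. Summed *Nrp2* at 7 dpi stood above Uninjured muscle in mesenchymal cells, tenocytes, mural cells and monocytes or macrophages (in the last from 37 of 293 cells, with thinned shares of 1.80% and 1.72%) but not in Schwann cells, and *Plxna4* of mesenchymal cells stood at 15.5 CPM at 3 and 7 dpi.

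Across the mesenchymal class as a whole, the 10 genes did not move together. All 10 had at least 30 UMIs in each comparison. From Uninjured to 1 dpi, *Sema4a* and *Nrp2* were at least 2-fold higher (background 9.09%) and *Sema3d* at least 2-fold lower (background 4.98%). From 1 to 3 dpi, *Plxna4* was higher (background 6.71%) and *Sema3a* and *Sema3e* lower (background 6.1%). From 3 to 7 dpi, *Sema3a*, *Sema4a* and *Nrp2* were higher (background 10.1%) and *Sema3e* lower (background 6.31%). Against Uninjured muscle, 7 dpi had 3 genes higher, *Sema4a*, *Nrp2* and *Plxna4* (background 16.4%), and 3 lower, *Sema3b*, *Sema3c* and *Sema3e* (background 10.7%). The median log2 ratio of the 10 genes at 7 dpi was 0.53, against 0.06 for all 15038 genes. The lower genes at 7 dpi were thus secreted ligands, and the higher ones were a membrane ligand, a neuropilin and a class A plexin.

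*Sema4a* counted among the genes that were higher in mesenchymal cells, but its level there was low, at 1.01, 2.12, 1.54 and 3.11 CPM. Markers of immune cells in the same mesenchymal cells moved as well. The 7 neutrophil markers summed to 0.672, 13.4, 10.2 and 10.4 CPM, and the 7 T cell markers to 0.685, 2.64, 3.63 and 27.3 CPM, with all 7 of each list detected at 1 dpi. The part of such RNA in the *Sema4a* difference was not tested.

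*Sema4a* and *Sema4d* were genes of immune cells. *Sema4a* was highest in NK cells in the first 3 libraries, at 144 CPM in Uninjured muscle, 159 CPM at 1 dpi and 141 CPM at 3 dpi, and stood at 142 CPM at 7 dpi. The 4 intervals overlapped, and 1 dpi was 1.10-fold Uninjured muscle (0.826 to 1.5). Neutrophils had 94.6, 130.4, 93.1 and 149 CPM, where the Uninjured and 7 dpi values rest on 23 and 19 UMIs. Their precursors, gated by granule genes such as *Mpo* and *Elane*, had 77.3 CPM at 1 dpi and 47.0 CPM at 3 dpi. Monocytes and macrophages kept to 62.4, 62.4, 56.8 and 60.9 CPM, and conventional dendritic cells to 68.8, 69.9 and 69.0 CPM in the libraries with at least 50 of them. B cells held at most 5.08 CPM.

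In T cells *Sema4a* differed between libraries. It was 40.1 CPM in Uninjured muscle, 89.4 CPM at 1 dpi, 104 CPM at 3 dpi and 51.1 CPM at 7 dpi. The 1 dpi level was 2.23-fold above Uninjured muscle (1.66 to 3.04), in a comparison where 21.5% of 8399 genes were at least 2-fold higher. CD8 T cells had 46.9, 108, 113 and 47.8 CPM, so the higher middle levels were present in them. CD4 T cells had 29.2, 51.4, 101 and 39.9 CPM. Their Uninjured value rests on 5 UMIs in 51 cells and their 7 dpi value on 6 UMIs in 66 cells. These counts are too few to say whether CD4 T cells had the same order. For T cells as a whole, a difference of the size seen at 1 dpi was common among their genes.

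*Sema4d* was more widely spread over immune cells and, unlike *Sema4a*, was present in B cells. At 1 dpi its level was 91.7 CPM in monocytes and macrophages, 85.4 CPM in T cells, 81.9 CPM in neutrophils, 81.5 CPM in B cells, 81.3 CPM in conventional dendritic cells and 76.1 CPM in NK cells, a narrow range in which neighbouring intervals overlapped. Granulocyte precursors had 14.7 CPM at 1 dpi and 11.7 CPM at 3 dpi, against 81.9 and 57.3 CPM in neutrophils. Plasmacytoid dendritic cells were higher, with 129 CPM at 3 dpi from 53 UMIs in 81 cells. Monocytes and macrophages held 45.0% of all *Sema4d* UMIs of the 1 dpi library, where they were 1674 of 9641 kept cells.

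Between Uninjured muscle and 1 dpi, *Sema4d* in monocytes and macrophages went from 39.6 to 91.7 CPM, 2.32-fold higher (1.87 to 2.89), where 17.1% of genes were at least 2-fold higher. The log2 ratio of 1.21 was 0.90 as a mean over single cells and 0.47 after thinning. It was 52.8 CPM at 3 dpi and 49.2 CPM at 7 dpi. B cells went from 32.0 to 81.5 CPM, 2.55-fold higher (1.55 to 4.51, background 21.4% of 8735 genes). Neutrophils went from 41.1 CPM, from 10 UMIs, to 81.9 CPM, 1.99-fold higher (1.06 to 4.20), where 31.3% of 6420 genes were at least 2-fold higher. NK cells had 60.4, 76.1, 77.5 and 34.0 CPM, and the 1 dpi ratio of 1.26 had an interval of 0.808 to 2.05 and turned to a log2 ratio of −0.55 after thinning. Mesenchymal cells held at most 1.39 CPM of *Sema4d* and chondrocytes 1.61 CPM.

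**Figure D3:**
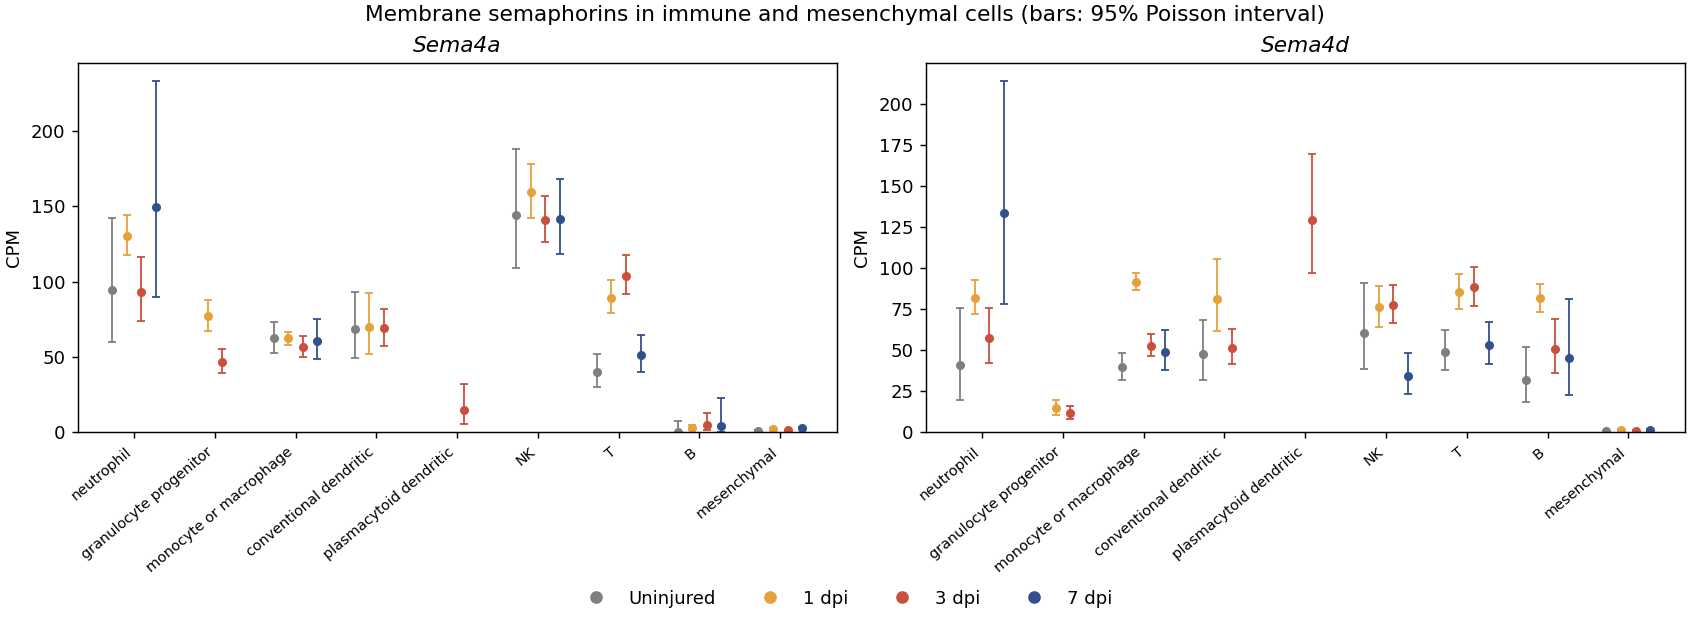
Levels of *Sema4a* and *Sema4d* (vertical axis, CPM) in immune classes and in mesenchymal cells (horizontal axis), with 1 point per library coloured by time and bars for the 95% Poisson interval. NK cells stood between 141 and 159 CPM of *Sema4a* in all 4 libraries, and B cells carried *Sema4d* (81.5 CPM at 1 dpi) but almost no *Sema4a*.

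**Figure D4:**
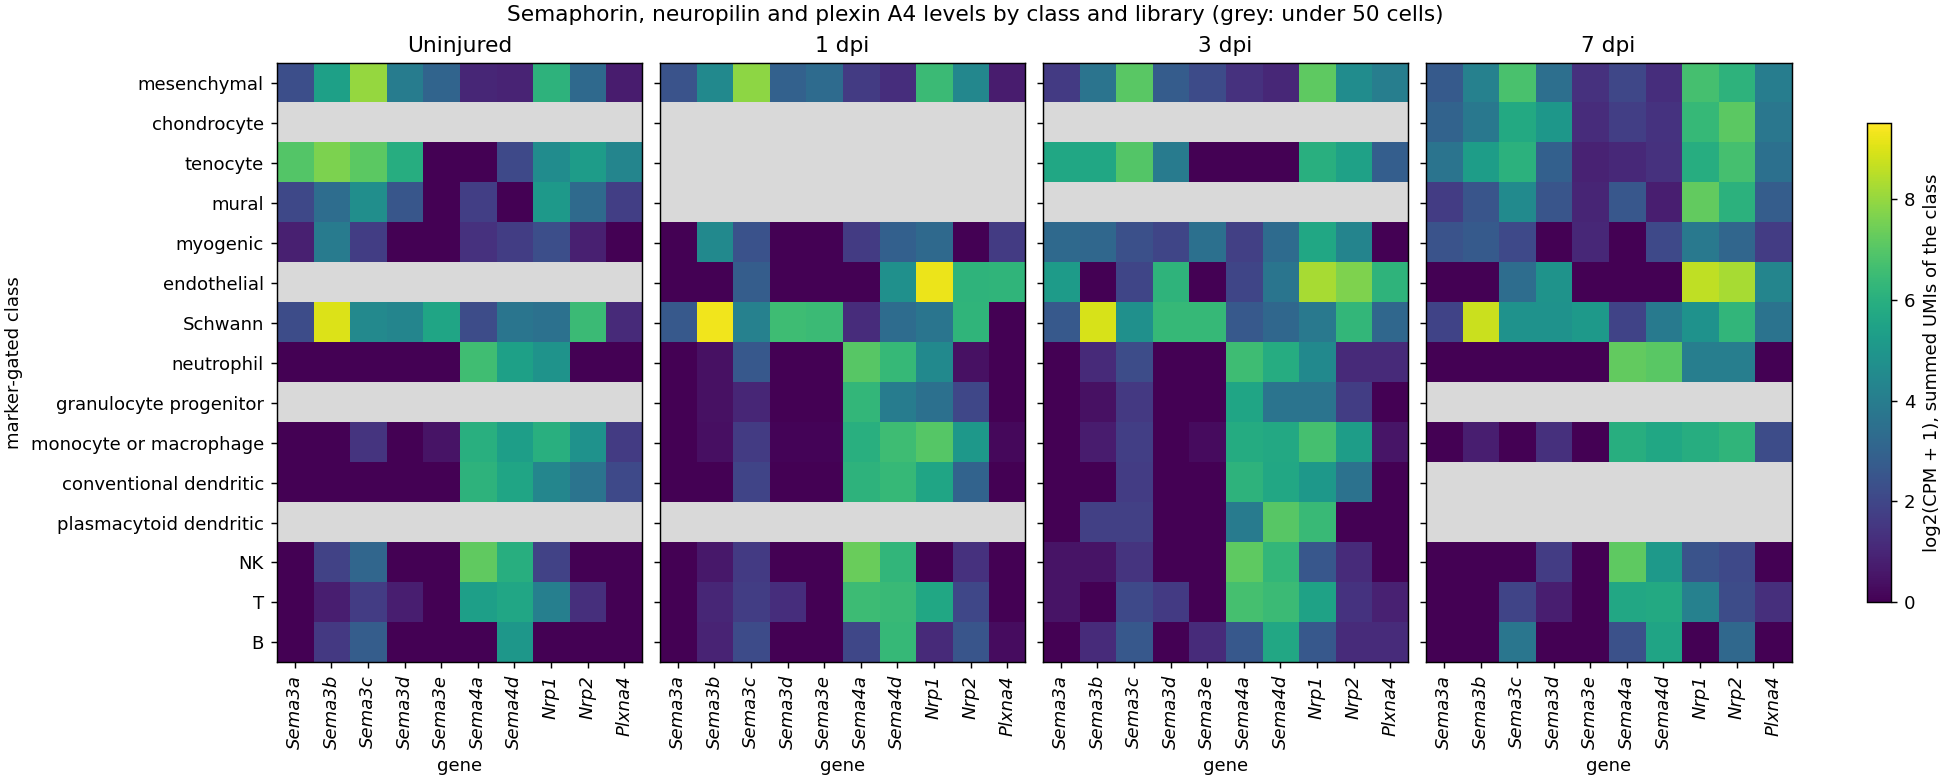
Level of each of the 10 genes (columns) in each class with at least 50 cells (rows) in the 4 libraries (panels), as log2(CPM + 1) by colour, with grey for smaller groups. *Sema3b* and *Sema3c* stand high in mesenchymal cells and tenocytes, *Sema3b*, *Sema3d* and *Sema3e* in Schwann cells and *Sema4a* and *Sema4d* in immune rows, while *Sema3e* was at 0 UMIs in tenocytes of Uninjured muscle and 3 dpi.

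The other genes of the pathway were read from lists in mesenchymal cells, with the same 2-fold limit and 30 UMIs. The lists were chosen with earlier results of these data known, so their counts are a description. Over all 15038 genes, 16.4% were at least 2-fold higher at 7 dpi than in Uninjured muscle and 10.7% at least 2-fold lower. These shares are the background for each list. Of the 12 other semaphorins measured between 7 dpi and Uninjured muscle, 3 were higher, *Sema7a* (0.517 to 5.42 CPM), *Sema3f* (0.737 to 3.88 CPM) and *Sema3g* (0.220 to 0.867 CPM), and 2 were lower, *Sema5a* (52.9 to 12.6 CPM) and *Sema6d* (20.3 to 9.53 CPM). In endothelial cells *Sema3f* and *Sema7a* had summed levels of 118 and 141 CPM at 1 dpi, from 64 cells, and *Sema3g* reached 720 CPM at 3 dpi, from 111 cells. Of 7 other plexins, *Plxnb1*, the receptor of *Sema4d*, and *Plxnb2* were higher and none was lower. *Plxnb1* went from 13 UMIs, 0.168 CPM, in Uninjured muscle to 5.85 CPM at 7 dpi, 34.8-fold higher, and chondrocytes had 19.8 CPM, 3.39-fold above mesenchymal cells. The 7 chondrocyte markers summed in mesenchymal cells to 6.91 CPM in Uninjured muscle and 274 CPM at 7 dpi, whose part was not tested. *Plxnd1*, the receptor of *Sema3e*, was highest at 3 dpi, with 19.6, 20.4, 44.2 and 23.7 CPM.

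Of 6 other receptors, 3 were higher at 7 dpi than in Uninjured muscle (background 16.4%), *Chl1*, *L1cam* and *Cd72*, and none was lower (background 10.7%). *Chl1*, a cell adhesion molecule of the L1 family that associates with neuropilins, was 4.54, 2.32, 90.1 and 31.2 CPM, 38.8-fold higher at 3 dpi than at 1 dpi, and so stepped up between the same 2 libraries as *Plxna4*. *Cd72* is a B cell gene, with 365 CPM in B cells at 3 dpi, and the 7 B cell markers summed in mesenchymal cells to 0.465, 9.87, 3.39 and 5.03 CPM in order of time, whose part was not tested. Of 11 effectors, 4 were higher (*Mical2*, *Dpysl3*, *Dpysl4* and *Rnd1*, background 16.4%) and 2 lower (*Rras* and *Fyn*, background 10.7%). *Mical2*, an actin-oxidising enzyme of the MICAL family, went from 3.39 to 34.4 CPM, and *Dpysl3*, a collapsin response mediator, from 129 to 339 CPM. *Rras*, a small GTPase that plexins switch off, went from 295 to 115 CPM, 2.57-fold lower. Of the 4 growth factors and receptors that share the neuropilins, *Pgf* was lower, from 68.6 to 8.09 CPM, and *Vegfa* was 92.2 and 54.6 CPM.

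**Figure D5:**
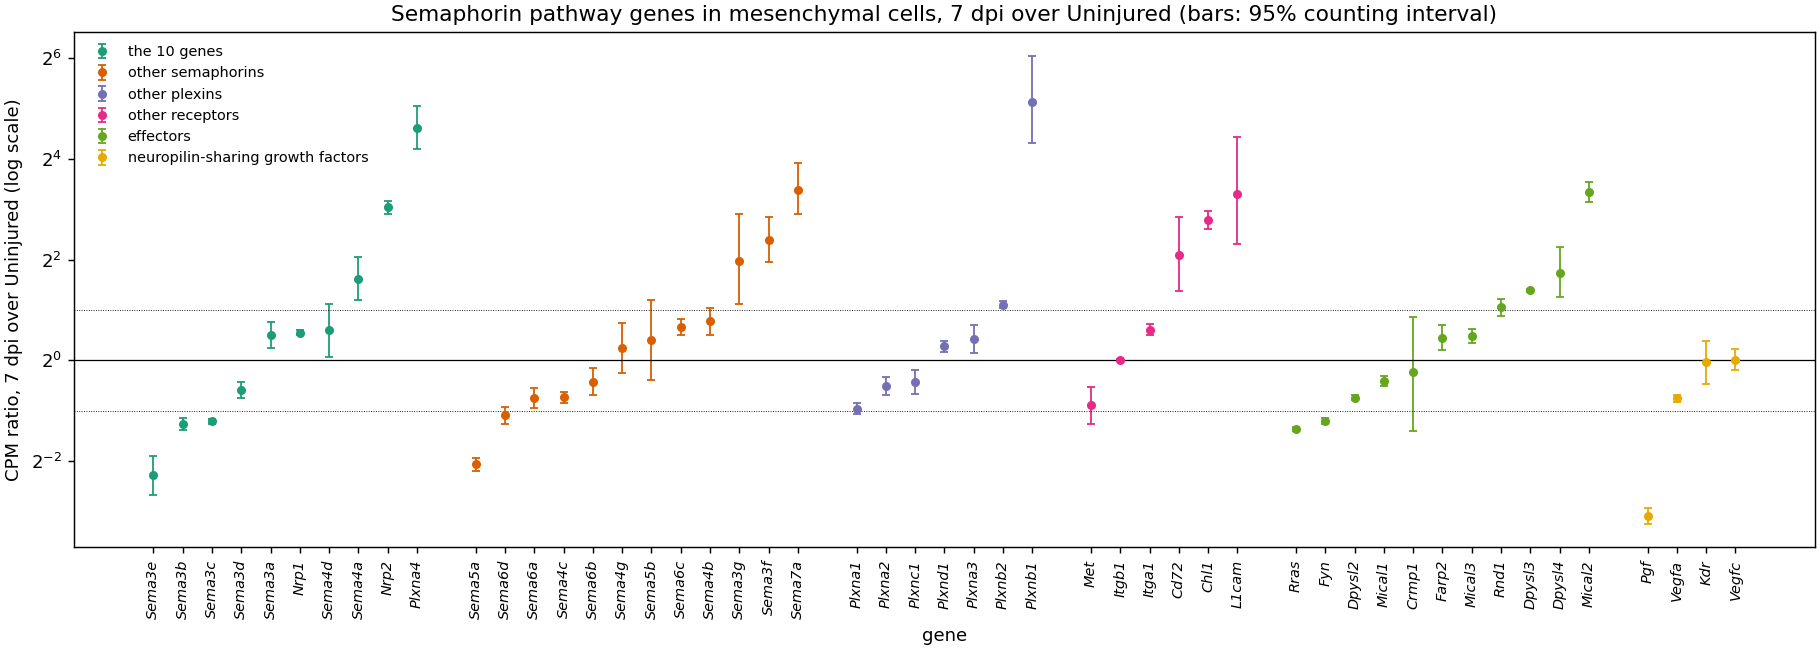
Ratio of CPM at 7 dpi over Uninjured muscle in mesenchymal cells (vertical axis, log scale) for the 10 genes and the pathway lists (horizontal axis, grouped and ordered by ratio within a list), with bars for the 95% counting interval, a solid line at 1 and dotted lines at 2-fold. *Plxna4* and *Nrp2* lead the 10 genes at 24.4-fold and 8.22-fold, and *Plxnb1* leads the plexins at 34.8-fold.

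Genes with the most similar pattern were found by Pearson correlation of log2(CPM + 1) over 47 class and library groups and 13006 genes, as a description with no test, since groups share libraries and depth. *Sema3c* was most like *Dcn* (r = 0.90), a matrix proteoglycan of fibroblasts. *Sema3e* was most like *Cdh19* (0.93), itself a Schwann cell gate marker, and *Sema3b* like *Pcdh9* (0.92). *Sema4a* was most like *Myo1f* (0.94) and *Sema4d* like *Dock2* (0.91), both genes of blood cells. *Nrp1* had no such close match (*Rab11fip5*, 0.77), and *Nrp2* was most like *Rai14* (0.85) and *Plxna4* like *Aqp1* (0.84), a water channel.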

How the data were processed

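Cells were dissociated with collagenase and profiled by 10x single-cell RNA sequencing. The deposited values are raw UMI counts per gene and cell made by the authors with Cell Ranger 5.0.0 on mm10, and Seurat 3.1.1 is named in the submitters' processing notes. Whether the down-sampling named in the methods preceded deposit is not given in the sources used here. Deposited totals were 91146335 to 129007669 UMIs per library. Cells over 2 SD from the mean log10 UMI or gene count, over 10% mitochondrial UMIs or in the top 7.5% of Scrublet scores (scanpy 1.11.5) were left out, as were cells reaching several lineages (102 to 893 per library). A cell entered a class with 3 markers of a fixed list. UMIs were summed per class and library (numpy 2.4.6, scipy 1.17.1), with exact Poisson intervals of 95% for CPM and conditional binomial intervals for ratios. With 1 library per time no test was run. A gene counted at 30 UMIs over both groups and 2-fold. The text names the 10 genes, the genes of 5 pathway lists and the 3 closest genes by correlation. Members and lists were chosen with earlier results of these data known. The counting interval of the CPM ratio was checked on simulated Poisson counts. That check does not cover the gates, the filters, thinning or variation between libraries. Other class gates, filters, scalings, thinning to 1000 UMIs and a 1.5-fold limit were tried. Lymphatic endothelial cells, C1q macrophages and T cell subsets were gated within their class.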

Additional observations from a re-analysis of the deposited data

Results flagged for a closer look

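Between Uninjured muscle and 7 dpi, the ratios of summed levels of 3 secreted ligands stood on opposite sides of 1 in adventitial and interstitial cells of the same libraries. The CPM ratio of 7 dpi over Uninjured muscle was 0.356 for *Sema3b* in adventitial cells (0.288 to 0.437) and 1.33 in interstitial cells (1.02 to 1.73). For *Sema3c* it was 0.607 (0.572 to 0.643) and 2.07 (1.79 to 2.39). For *Sema3d* it was 0.716 (0.562 to 0.904) and 4.19 (2.35 to 7.62). The intervals cover counting error only, and the difference between the gates was not tested, since each time point is 1 library. Median depth in Uninjured muscle and at 7 dpi was 8845.5 and 3799.5 UMIs in adventitial cells and 7910.5 and 3325 UMIs in interstitial cells. The thinned shares of *Sema3c* given above went in the same directions as its ratios. The thinned shares of *Sema3d* in interstitial cells given above had overlapping intervals, so its higher interstitial level was not separated from counting error at equal depth. No result at equal depth is given here for *Sema3d* in adventitial cells or for *Sema3b* in either gate. The opposite directions of *Sema3b* and *Sema3d* therefore stand for summed levels only.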

How the results depend on the processing

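No paired analysis was possible because each time point is 1 library, and no replicate could be left out. Among the 10 mesenchymal genes, from Uninjured muscle to 1 dpi, the count at least 2-fold higher, 2, was 1 with doublets by score kept or with median-of-ratios scaling. The count lower, 1, was 2 without the cell filter, with median-of-ratios scaling or at 1.5-fold. From 1 to 3 dpi, the count higher, 1, was 2 at 1.5-fold, and the count lower, 2, was 1 after thinning, as a mean over single cells or with median-of-ratios scaling and 4 at 1.5-fold. From 3 to 7 dpi the count lower, 1, was 0 without the cell filter. In chondrocytes over mesenchymal cells the count higher, 1, was 2 with 2 markers for a class, with median-of-ratios scaling or at 1.5-fold. The count lower, 1, was 0 with 4 markers, with the SD limit on linear counts, with doublets kept, after thinning, as a mean over single cells and with median-of-ratios scaling. The shares of all genes under these other settings and at 1.5-fold are not given here, so these counts have no background beside them. The log2 ratio of *Sema4d* at 1 dpi over Uninjured muscle was −0.55 in NK cells after thinning, and in monocytes and macrophages 0.47 after thinning and 0.90 as a mean over single cells. Among ratios whose counting interval lay on 1 side of 1, directions turned for *Nrp2* in mesenchymal cells from 1 to 3 dpi without the cell filter (−0.072), for *Sema3b* from 3 to 7 dpi after thinning (−0.11) and as a mean over single cells (−0.13), and for *Plxna4* in chondrocytes over mesenchymal cells after thinning (0.10). The cause was not tested. Of the other values, 299 moved by less than their counting interval and 102 by more, some of them across 0 where the interval as given held 1. Median-of-ratios scaling moved the median gene by 0.18 (log2) in mesenchymal cells, 0.12 in monocytes and macrophages and 0.26 in T cells at 1 dpi over Uninjured muscle. The scalings of 7 dpi over Uninjured muscle were chosen after seeing the data. Thinning left 5 of the gated ratios without a value because no UMI remained in Uninjured cells. They left *Nrp2* (3.04) and *Sema3c* (−1.21) of mesenchymal cells within their counting interval, and *Plxna4* (4.61) was 6.94 after thinning. This thinned *Plxna4* ratio rests on 1 positive Uninjured cell. Values from under 30 UMIs, such as *Sema4d* of Uninjured neutrophils, are limited by depth.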
